A study of Mus musculus with 2 samples.

Results

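The genes described are the paralogs Bcl2a1a, Bcl2a1b and Bcl2a1d together with Mcl1, Bcl2, Bcl2l1, Bcl2l11 and Bax, 8 genes of the 32285 listed in the files. They were taken by symbol, and all 8 were found. The list was drawn up after earlier results on the same cells were known, among them the low day 3 level of the Bcl2a1 paralogs in monocytes/macrophages, so the differences between the days and between the cell classes are given below as a description. The tissue was the quadriceps of male wild-type mice, 14 weeks old, injured by an intramuscular injection of 1.2% BaCl2 and taken 1 day or 3 days later. Each day had 1 library of single cells, sorted by scatter to leave out dead cells and pooled from 5 mice, so no test and no p-value is given. Both libraries were made from frozen and thawed cells of injured muscle with a 10x Genomics 3′ kit.

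The Bcl2 family decides whether the outer membrane of the mitochondria is opened, which releases cytochrome c and starts the caspases of the intrinsic pathway of apoptosis. The effectors Bax and Bak1 open the membrane. Pro-survival members, among them Mcl1, Bcl2, Bcl2l1 (Bcl-xL) and the Bcl2a1 proteins (A1), hold the effectors and the BH3-only proteins in check. Bcl2l11 encodes Bim, a BH3-only protein that binds all of the main pro-survival members. A1 is an NF-kB target of leukocytes, and neutrophils, which live for a short time, are known to depend on Mcl1. The mouse carries several copies of Bcl2a1 where the human genome has a single gene.

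The 3 paralogs are nearly the same sequence, which bears on how far their counts can be told apart. In GENCODE M21 (GRCm38, the assembly also called mm10) they lie on chromosome 9, each with 2 exons: Bcl2a1d at 88723285 to 88731914 on the minus strand, Bcl2a1a at 88956900 to 88962419 on the plus strand and Bcl2a1b at 89199209 to 89207827 on the plus strand. Another copy, Bcl2a1c, lies apart on the same chromosome at 114330135 to 114330578 with 1 exon. The other members are single genes: Mcl1 on chromosome 3 (95658788 to 95663176), Bcl2 on chromosome 1 (106538178 to 106714274), Bcl2l1 (152780668 to 152831728) and Bcl2l11 (128126038 to 128162547) on chromosome 2, and Bax on chromosome 7 (45461697 to 45466898). The coding sequences of the 3 paralogs have 516 bases before the stop codon and no gap, and they differ at 12 positions. Of these, 6 are particular to Bcl2a1a, 5 to Bcl2a1b and 1 to Bcl2a1d. Counted from the A of the start codon, the base particular to Bcl2a1d is G4T, and those particular to Bcl2a1b include C48T and A312G, each against the base that the other two share. Bcl2a1a and Bcl2a1b are identical at 97.9% of the coding bases, Bcl2a1a and Bcl2a1d at 98.6%, and Bcl2a1b and Bcl2a1d at 98.8%.

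The stretches of the coding sequence that hold all 12 positions are shown because these bases set the coding sequences apart, although most reads of a 3′ library lie nearer to the end of the transcript. Capitals mark the positions at which the 3 differ. Bases 1 to 120 read as follows.
Bcl2a1a: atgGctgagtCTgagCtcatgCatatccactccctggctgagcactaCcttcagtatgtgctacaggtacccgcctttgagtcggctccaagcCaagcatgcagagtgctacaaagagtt
Bcl2a1b: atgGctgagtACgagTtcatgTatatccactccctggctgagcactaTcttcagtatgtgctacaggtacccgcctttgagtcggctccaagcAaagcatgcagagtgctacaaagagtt
Bcl2a1d: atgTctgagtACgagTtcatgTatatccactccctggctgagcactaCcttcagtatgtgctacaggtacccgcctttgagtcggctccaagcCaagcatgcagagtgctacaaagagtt
Bases 301 to 516 read as follows.
Bcl2a1a: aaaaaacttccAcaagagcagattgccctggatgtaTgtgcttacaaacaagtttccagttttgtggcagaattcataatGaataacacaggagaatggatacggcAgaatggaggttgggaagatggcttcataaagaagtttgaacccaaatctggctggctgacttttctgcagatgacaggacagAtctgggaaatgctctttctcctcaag
Bcl2a1b: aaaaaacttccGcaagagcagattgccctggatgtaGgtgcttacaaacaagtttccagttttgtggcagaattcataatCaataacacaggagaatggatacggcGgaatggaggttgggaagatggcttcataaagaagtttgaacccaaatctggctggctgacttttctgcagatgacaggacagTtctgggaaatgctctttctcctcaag
Bcl2a1d: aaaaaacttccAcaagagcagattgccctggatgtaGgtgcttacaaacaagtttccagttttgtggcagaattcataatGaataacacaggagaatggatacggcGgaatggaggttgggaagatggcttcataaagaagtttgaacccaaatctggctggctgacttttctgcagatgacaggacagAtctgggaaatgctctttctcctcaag

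Read 2 of these libraries had 98 bases by the labels, and Cell Ranger leaves out reads that map equally well to more than 1 gene. Of all windows of 98 bases in the transcript, 55.8% of those of Bcl2a1a, 67.9% of Bcl2a1b and 43.9% of Bcl2a1d are found in no other Bcl2a1 transcript. In the last 300 bases, nearest to where a 3′ library is read, these shares are 62.6%, 55.7% and 18.2%. A difference in counted UMIs between the paralogs therefore need not be a difference in RNA, and their shares are compared between cell classes and days. Bcl2a1d is the paralog with the fewest windows of its own. All 347 windows of Bcl2a1c are its own. The annotation in the files may differ from the release used here.

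The promoters of the 3 paralogs are alike too. RefSeq (GRCm38.p6) gives the start of each gene at another place of the same sequence, and the parts upstream of the GENCODE transcripts share 142 aligned columns. Over these columns Bcl2a1a and Bcl2a1b are identical, and Bcl2a1d differs from both by 1 base and a gap of 6 bases, an identity of 95.1%. The pieces are chr9:88956670-88956899 on the plus strand for Bcl2a1a, chr9:89199023-89199208 on the plus strand for Bcl2a1b and chr9:88731915-88732100 on the minus strand for Bcl2a1d. They are shown because the 3 genes were all lower on day 3, and capitals mark the bases that differ inside the shared columns.
Bcl2a1a: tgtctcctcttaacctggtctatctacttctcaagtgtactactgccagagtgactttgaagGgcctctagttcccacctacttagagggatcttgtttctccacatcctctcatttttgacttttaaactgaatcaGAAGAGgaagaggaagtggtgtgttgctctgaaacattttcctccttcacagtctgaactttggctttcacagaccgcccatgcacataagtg
Bcl2a1b: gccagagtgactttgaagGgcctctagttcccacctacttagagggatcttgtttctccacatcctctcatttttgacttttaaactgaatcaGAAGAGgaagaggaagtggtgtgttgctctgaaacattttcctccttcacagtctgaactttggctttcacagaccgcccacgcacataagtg
Bcl2a1d: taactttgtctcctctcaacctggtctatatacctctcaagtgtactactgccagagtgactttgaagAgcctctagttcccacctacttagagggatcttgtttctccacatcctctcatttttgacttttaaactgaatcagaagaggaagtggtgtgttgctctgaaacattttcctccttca
Both strands of 300-base windows (250 bases before to 50 after the RefSeq start) were searched. The patterns were the PU.1 core GAGGAAGT and the AP-1-like TGANTCA, in which N is any base. All 3 paralogs held both, against 3.20% and 7.81% of the 32851 windows of the genome, and none of the other 5 members held either. The AP-1-like match of each paralog read TGAATCA, with A at the free base. The NF-kB consensus was found in Bcl2l1 alone among the members and in 4.51% of all windows, and TATAAA in none of the members and 13.6% of all. A match is a description of these letters and not a bound site.

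After removal of barcodes with fewer than 1000 UMIs, fewer than 200 genes or more than 7.5% mitochondrial UMIs, 6735 cells of day 1 and 4627 of day 3 were described, with medians of 9389 and 14548 UMIs. The mitochondrial limit removed 7.02% of the barcodes taken as cells on day 1 and 30.3% on day 3. The deposited lists of possible barcodes differ in length between the libraries (737280 and 6794880), so a difference in chemistry cannot be told apart from the day, and 0 of the cells kept had a barcode found in both. Clusters were named from lists of marker genes, and the members were left out of the genes used for clustering. The monocyte/macrophage-like class held 3544 cells on day 1 and 2819 on day 3, the neutrophil-like class 2075 and 254, the fibroblast/FAP-like class (FAP, fibro-adipogenic progenitor) 661 and 848, the endothelial-like class 74 and 72, and the satellite cell/myoblast-like class 5 and 201. A further cluster of 376 and 433 cells, led by H2-Eb1, H2-Aa, Cd74 and Cd209a, passed no list and is called the H2-Eb1-led cluster. All markers of the monocyte/macrophage list were found in the class of that name on both days, and their summed level was 4260 CPM on day 1 and 8633 CPM on day 3. Different clusters held most of that class on the 2 days.

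Levels are given as CPM, the UMIs of a gene per 1000000 UMIs, both summed over the cells of a class, with exact Poisson 95% intervals (CI). Since UMIs are counted at the 3′ end, a level does not grow with the length of the transcript. Ratios are log2 of the CPM on day 3 over day 1 with an exact interval from the binomial split of the counts between the days. All intervals cover counting error only, neither the spread between mice nor that between libraries.

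In monocyte/macrophage-like cells the Bcl2a1 paralogs were far lower on day 3 than on day 1. Bcl2a1a had 60.5 CPM on day 1 (2512 UMIs, CI 58.2 to 63.0) and 1.46 CPM on day 3 (65 UMIs, CI 1.12 to 1.86), a log2 ratio of -5.37 (CI -5.75 to -5.02) or 41.2-fold. This ratio ran from -6.10 to -4.41 over the alternatives tried. Bcl2a1d had 204 CPM on day 1 (8478 UMIs) and 7.71 CPM on day 3 (CI 6.92 to 8.57), a log2 ratio of -4.73 (CI -4.89 to -4.57) or 26.5-fold. Bcl2a1b had 760.4 CPM on day 1 (CI 752 to 769) and 125 CPM on day 3 (CI 122 to 128), a log2 ratio of -2.61 (CI -2.65 to -2.57) or 6.09-fold. The summed level went from 1025 to 134 CPM, a log2 ratio of -2.94 (CI -2.98 to -2.90) or 7.65-fold. The order of the paralogs in counted UMIs was the same on both days, Bcl2a1b above Bcl2a1d above Bcl2a1a, with intervals that did not meet.

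These ratios stood near the low end of the class. Of the 10721 genes with at least 100 UMIs over both days, 7 had a lower ratio than Bcl2a1a, 14 than Bcl2a1d and 90 than Bcl2a1b, and the median ratio of all was 0.44. At least 2-fold lower on day 3 were 3 of the 8 members, the paralogs, against 4.91% of all genes, and at least 2-fold higher were 0 of 8 against 26.9%. Because the members were chosen with these ratios known, the counts are read as a description only. Over the class as a whole, the drop of Bcl2a1a was larger than that of Bcl2a1b by 2.76 on the log2 scale (CI 2.41 to 3.15) and than that of Bcl2a1d by 0.64 (CI 0.26 to 1.06).

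**Figure D1:**
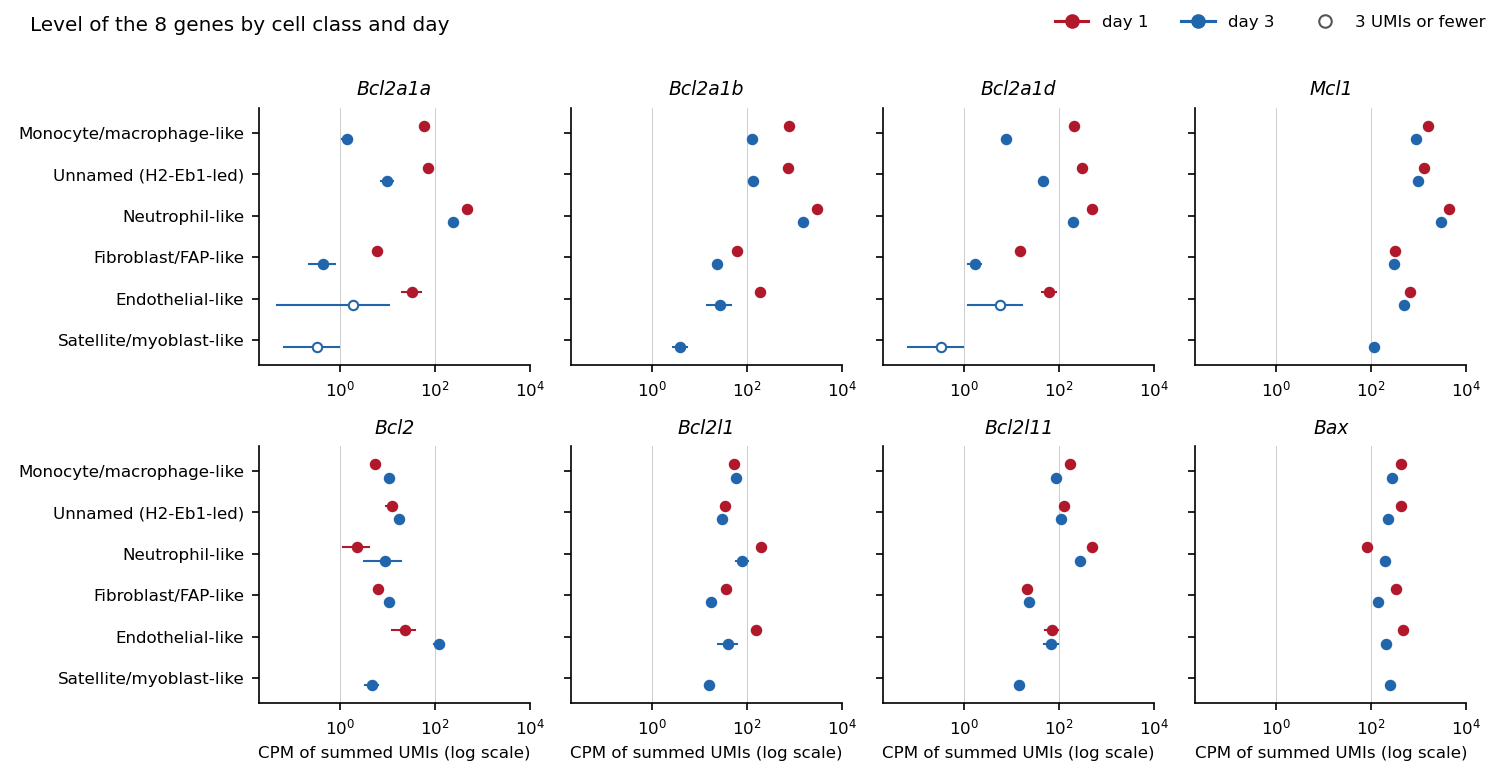
CPM on a log axis for each member (panels) in 6 cell classes (rows), with day 1 in red, day 3 in blue and exact Poisson 95% intervals as lines; open points rest on 3 UMIs or fewer. The paralogs are highest in neutrophil-like cells on both days and fall from 60.5 to 1.46 CPM (Bcl2a1a), 760.4 to 125 (Bcl2a1b) and 204 to 7.71 (Bcl2a1d) in monocyte/macrophage-like cells, while Bcl2l1 stays between 52.7 and 57.9 CPM there.

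Fewer cells held a UMI of the paralogs on day 3, and those that did held fewer. A monocyte/macrophage-like cell had a median of 7 UMIs of the 3 paralogs on day 1 (quartiles 2 and 18, highest 110) and a median of 0 on day 3 (quartiles 0 and 2, highest 40). The share of cells with at least 1 such UMI was 84.0% on day 1 and 44.9% on day 3, although cells of day 3 were deeper, with medians of 11163.5 and 13808 UMIs. After each cell was thinned to 3000 UMIs, leaving out 132 and 45 shallower cells, the shares were 70.8% (CI 69.2 to 72.3) and 21.9% (CI 20.4 to 23.5). For Bcl2a1b the thinned shares were 64.6% and 19.97%, for Bcl2a1d 33.9% and 2.27%, and for Bcl2a1a 12.02% and 0.469%. In satellite cell/myoblast-like cells of day 3, a class outside the blood lineage, 0.995% of the thinned cells and 5.47% of the unthinned cells held a paralog UMI at a median depth of 44223 UMIs. In fibroblast/FAP-like cells of day 1 the thinned share was 11.1% and the unthinned 23.9%, at a median of 27628 UMIs. Bcl2a1a was found in 0.498% of the thinned satellite cell/myoblast-like cells of day 3 (CI 0.0126 to 2.74), so the thinned share of 0.469% in monocyte/macrophage-like cells was not told apart from background. In summed UMIs it was at 1.46 CPM there (CI 1.12 to 1.86) and at 0.333 CPM in satellite cell/myoblast-like cells (3 UMIs, CI 0.0686 to 0.972), and its day ratio rests on 65 UMIs.

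Barcodes of 100 UMIs or fewer stood for free RNA and held the paralogs at 927 CPM on day 1 and 76.1 CPM on day 3. The share of free RNA in monocyte/macrophage-like cells, estimated from collagen genes and Dcn, would give at most 18.9 CPM of the 1025 on day 1 and 1.35 of the 134 on day 3. All 8 neutrophil markers were found in the class, at a summed level of 1609 CPM on day 1 and 428 CPM on day 3. Without the cells of the class that held a UMI of 3 or more of these markers, a choice made after seeing the data that left 2937 and 2581 cells, the log2 ratio of the summed paralogs was -2.92 (CI -2.96 to -2.88).

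The paralogs also differed in their make-up. In monocyte/macrophage-like cells Bcl2a1a gave 5.91% of the 42540 paralog UMIs on day 1 (Clopper-Pearson CI 5.68 to 6.13) and 1.09% of the 5979 on day 3 (CI 0.840 to 1.38). Bcl2a1d gave 19.9% (CI 19.5 to 20.3) and 5.75% (CI 5.18 to 6.37), and Bcl2a1b 74.2% (CI 73.7 to 74.6) and 93.2% (CI 92.5 to 93.8). Bcl2a1b thus made up most of what remained on day 3. The day 3 share of Bcl2a1a ran from 0.535% to 2.20% over the alternatives, below that of day 1 in each.

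In neutrophil-like cells the make-up differed less between the days. Bcl2a1a gave 11.9% of 20197 paralog UMIs on day 1 (CI 11.5 to 12.4) and 12.6% of 1305 on day 3 (CI 10.9 to 14.6), Bcl2a1b 75.6% and 77.0%, and Bcl2a1d 12.4% and 10.3%. The day ratio of Bcl2a1a differed from that of Bcl2a1b by 0.06 on the log2 scale (CI -0.20 to 0.30). That of Bcl2a1d differed from that of Bcl2a1b by -0.29 (CI -0.57 to -0.02), so Bcl2a1d lost some share against Bcl2a1b. Bcl2a1a had a larger share in neutrophil-like than in monocyte/macrophage-like cells on each day, and Bcl2a1d a smaller one on day 1. In the H2-Eb1-led cluster the shares were 6.60%, 66.0% and 27.4% for Bcl2a1a, Bcl2a1b and Bcl2a1d on day 1 (5275 UMIs), and 5.27%, 70.9% and 23.8% on day 3 (949 UMIs). Bcl2a1d had its largest share among the classes there, with intervals of 26.2 to 28.6% on day 1 and 21.1 to 26.7% on day 3, although the intervals of endothelial-like cells (15.9 to 28.9% on day 1, from 37 UMIs, and 3.58 to 41.4% on day 3, from 3 UMIs) met them.

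**Figure D2:**
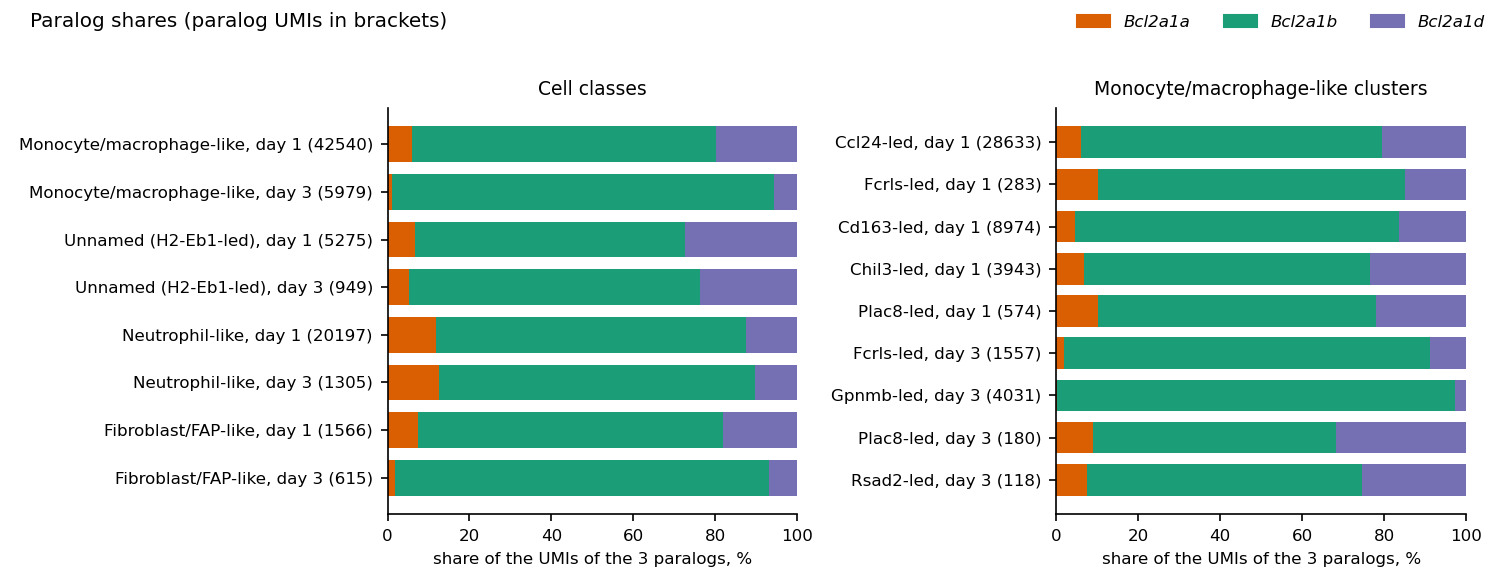
Share in percent of the UMIs of the 3 paralogs given by Bcl2a1a (orange), Bcl2a1b (green) and Bcl2a1d (violet), by cell class and day (left) and by cluster of the monocyte/macrophage-like class and day (right), with the number of paralog UMIs in brackets. Bcl2a1b rises from 74.2% to 93.2% in the monocyte/macrophage-like class and reaches 97.2% in the Gpnmb-led cluster. In the neutrophil-like class it gives 75.6% on day 1 and 77.0% on day 3.

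On day 1 the rarer paralogs were found more often in cells with a UMI of Bcl2a1b than in cells without. Among monocyte/macrophage-like cells of day 1 thinned to 3000 UMIs, 29.2% held none of the paralogs, 37.6% held 1, 26.6% held 2 and 6.54% held all 3. Bcl2a1d was found in 44.2% of the 2203 cells with Bcl2a1b and in 15.3% of the 1209 without it. For Bcl2a1a these shares were 16.7% and 3.39%. On day 3, 78.1% of the 2774 cells held none, 21.2% held 1, 20 cells held 2 and 1 cell held all 3. Bcl2a1d was then in 3.25% of the 554 cells with Bcl2a1b and in 2.03% of the 2220 without, and Bcl2a1a in 0.722% and 0.405%. The clusters of the class differ in all 3 paralogs, so no p is given for this joint detection.

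Within the monocyte/macrophage-like class the level of the paralogs differed between clusters. On day 1 the summed level was 1634 CPM (CI 1615 to 1653) in the Ccl24-led cluster of 1477 cells, whose leading genes include Il1a and Cxcl3. It was 695 CPM in the Cd163-led cluster of 1018 cells, 481 CPM in the Chil3-led cluster of 763 cells and 265 CPM in the Plac8-led cluster of 211 cells, which is also led by the monocyte gene Ly6c2. On day 3 it was 200.2 CPM in the Gpnmb-led cluster of 902 cells, 87.3 CPM in the Fcrls-led cluster of 1229 cells, 55.8 CPM in the Plac8-led cluster of 376 cells and 42.5 CPM in the Rsad2-led cluster of 263 cells. The highest cluster of day 3 was thus below the lowest of day 1, which also held for Bcl2a1a and Bcl2a1d alone. It did not hold for Bcl2a1b alone, with 195 CPM in the Gpnmb-led cluster of day 3 and 180 CPM in the Plac8-led cluster of day 1.

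The paralogs of the Gpnmb-led cluster were almost all Bcl2a1b. Bcl2a1b gave 97.2% of 4031 paralog UMIs there (CI 96.7 to 97.7), whereas Bcl2a1a gave 7 UMIs (0.174%, CI 0.0698 to 0.357) and Bcl2a1d 105 (2.60%, CI 2.14 to 3.14). On day 3 Bcl2a1b gave 89.1% in the Fcrls-led cluster and 66.9% of 118 UMIs in the Rsad2-led cluster (CI 57.7 to 75.3). In the Plac8-led cluster, the only cluster of the class with more than 50 cells on each day, Bcl2a1a gave 10.1% on day 1 (CI 7.76 to 12.9) and 8.89% on day 3 (CI 5.17 to 14.0), and Bcl2a1d 22.0% and 31.7%. Bcl2a1b did not gain share in that cluster, with 67.9% (CI 64.0 to 71.7) and 59.4% (CI 51.9 to 66.7). The summed level of the cluster still fell from 265 CPM to 55.8 CPM, a log2 ratio of -2.24 (CI -2.50 to -2.003), and Mcl1 was at 1417 and 1369 CPM, a log2 ratio of -0.05 (CI -0.12 to 0.02). The ratios of the single paralogs there were -2.40 for Bcl2a1a (CI -3.33 to -1.61), -2.44 for Bcl2a1b (CI -2.76 to -2.13) and -1.71 for Bcl2a1d (CI -2.20 to -1.26). Neutrophil markers in the Plac8-led cluster were at 7105 CPM on day 1 and 3393 CPM on day 3, and their part in these values was not tested. The Fcrls-led cluster had 50 cells on day 1, with neutrophil markers at 5976 CPM against 201 CPM on day 3, and its day ratios are not described further.

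**Figure D3:**
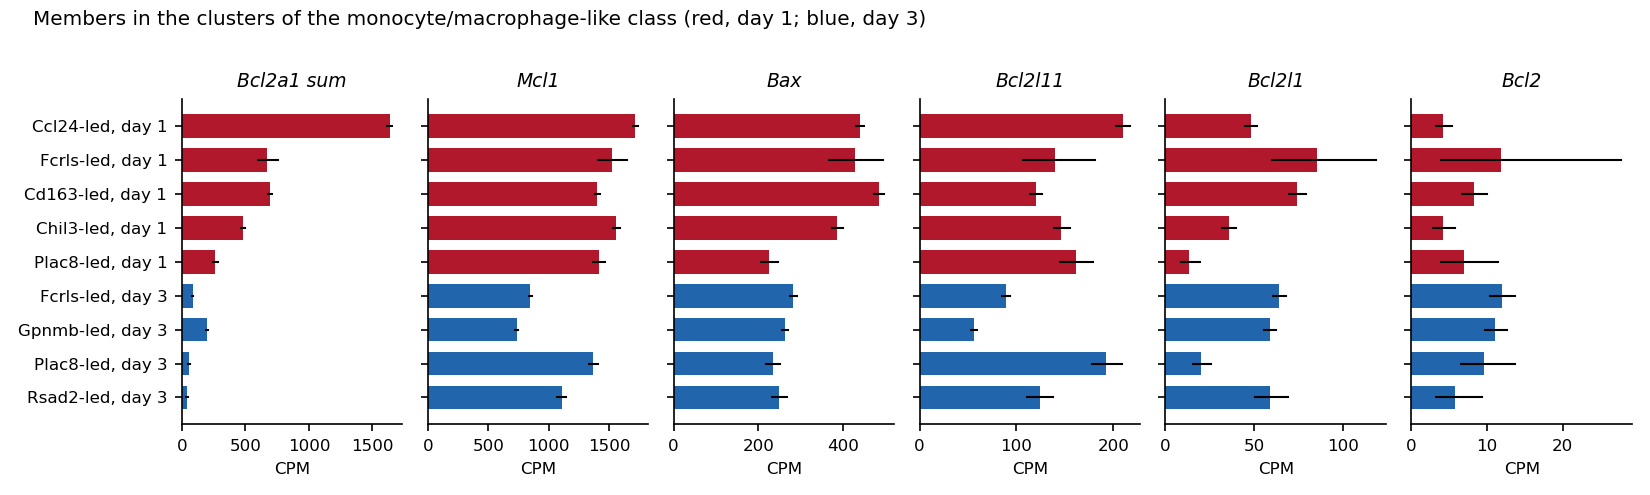
CPM from 0 of the summed paralogs, Mcl1, Bax, Bcl2l11, Bcl2l1 and Bcl2 in the clusters of the monocyte/macrophage-like class with at least 50 cells on a day, day 1 in red and day 3 in blue, with exact Poisson 95% intervals. The paralog sum is 1634 CPM in the Ccl24-led cluster of day 1 and 200.2 CPM or less in each cluster of day 3, and Mcl1 in the Plac8-led cluster is 1417 and 1369 CPM on the 2 days.

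Neutrophil-like cells had the highest level of each paralog on both days. The sum was 3921 CPM on day 1 (CI 3867 to 3975) and 1934 CPM on day 3 (CI 1830 to 2042), a log2 ratio of -1.02 (CI -1.10 to -0.94). Over the same days the neutrophil markers of the class went from 82786 to 28787 CPM, those of monocytes/macrophages from 297 to 2356 CPM and those of fibroblasts/FAPs from 28.0 to 1486 CPM, and the share of free RNA was estimated at up to 2.02% and 26%. The part of these in the day ratios of the class, those of Mcl1, Bcl2l1 and Bcl2l11 included, was not tested. Single paralogs ran from 468 to 245 CPM (Bcl2a1a), 2966 to 1489 CPM (Bcl2a1b) and 487 to 200.1 CPM (Bcl2a1d). Against monocyte/macrophage-like cells of day 1, the sum was higher by 1.94 on the log2 scale (CI 1.91 to 1.96) or 3.82-fold. The excess was 2.95 for Bcl2a1a (CI 2.87 to 3.03), 1.96 for Bcl2a1b and 1.25 for Bcl2a1d (CI 1.19 to 1.32). With cells called from a share of the highest UMI counts, which kept few of the shallow neutrophils, the sum was lower than in monocyte/macrophage-like cells by 0.51, and the excess of Bcl2a1a was 0.47. The 558 neutrophil-like cells of day 1 then comprised 119 of an S100a9-led cluster and 439 of a cluster led by Ifitm6, Plac8 and Hp. Clustering each library on its own gave an excess of the sum of 1.27. With each cell thinned to 1000 UMIs, 78.0% of neutrophil-like and 46.5% of monocyte/macrophage-like cells of day 1 held a paralog UMI.

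On day 1 the order of the sum over the classes was neutrophil-like, H2-Eb1-led at 1092 CPM (CI 1063 to 1122), monocyte/macrophage-like at 1025 CPM (CI 1016 to 1035), endothelial-like at 281 CPM and fibroblast/FAP-like at 82.9 CPM, and no intervals of neighbours met. On day 3 it was neutrophil-like, H2-Eb1-led at 189 CPM (CI 177 to 201), monocyte/macrophage-like at 134 CPM (CI 131 to 138), endothelial-like at 34.8 CPM (18 UMIs), fibroblast/FAP-like at 25.3 CPM and satellite cell/myoblast-like at 4.66 CPM. The endothelial-like and fibroblast/FAP-like classes of day 3 were not told apart by their intervals, 20.6 to 55.0 and 23.3 to 27.4 CPM. On day 1 the paralogs of endothelial-like cells stood below the level of the free RNA, and the share of free RNA in fibroblast/FAP-like cells, estimated from neutrophil genes, would give up to 58.0 of the 82.9 CPM, so these levels are not read as expression. In fibroblast/FAP-like cells of day 3, 562 of the 615 paralog UMIs were Bcl2a1b, 14.6% of the cells held one and a single cell held up to 34, with free RNA giving up to 2.05 CPM in all. Markers of monocytes/macrophages were at 8633 CPM in monocyte/macrophage-like cells of day 3. Fibroblast/FAP-like cells held them at 348 CPM on day 1 and 1087 CPM on day 3. The part of such RNA in the paralogs of the fibroblast/FAP-like class was not tested. Without likely doublets, 568 and 751 cells were left, and the log2 day ratio in this class was -2.57 for Bcl2a1a, -0.60 for Bcl2a1b and -1.84 for Bcl2a1d, against -3.69, -1.42 and -3.11 with them.

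Mcl1, a pro-survival protein with a very short half-life, was the most abundant of the 8 genes in each class and day, except in fibroblast/FAP-like cells of day 1 and satellite cell/myoblast-like cells of day 3. It had 1568 CPM on day 1 in monocyte/macrophage-like cells (CI 1556 to 1580) and 854 CPM on day 3 (CI 845 to 862), a log2 ratio of -0.88 (CI -0.90 to -0.86), and 616 of the 10721 genes, 5.75%, were lower. A UMI of Mcl1 was found in 96.98% of the cells thinned to 3000 UMIs on day 1 and in 87.9% on day 3. In neutrophil-like cells it had 4233 and 2933 CPM (log2 ratio -0.53, CI -0.60 to -0.46), in the H2-Eb1-led cluster 1269 and 978 CPM (-0.38, CI -0.43 to -0.32), and in fibroblast/FAP-like cells 318 and 301 CPM (-0.08, CI -0.13 to -0.03). The last ratio turned to 0.33 after subtraction of free RNA and to 0.18 without likely doublets. Endothelial-like cells held 669 and 485 CPM, of which free RNA would give up to 854 and 114 CPM, so the level of day 1 is not read as expression. Bax was higher than Mcl1 in satellite cell/myoblast-like cells of day 3, at 251 against 115 CPM, and in fibroblast/FAP-like cells of day 1 it had 334 CPM (CI 326 to 342) against 318 CPM for Mcl1 (CI 309.7 to 326). Inside the monocyte/macrophage-like class Mcl1 varied less than the paralogs, from 1400 to 1716 CPM among the clusters of day 1 and from 734 to 1369 CPM among those of day 3.

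Bcl2 was rare and moved the other way. Monocyte/macrophage-like cells had 5.66 CPM on day 1 (235 UMIs, CI 4.96 to 6.44) and 10.9 CPM on day 3 (487 UMIs, CI 9.97 to 11.9), a log2 ratio of 0.95 (CI 0.72 to 1.18), against a median of 0.44 over all genes. Fibroblast/FAP-like cells had 6.35 and 11.01 CPM (0.79, CI 0.48 to 1.12). Neutrophil-like cells had 12 UMIs on day 1 and 6 on day 3, giving levels of 2.33 CPM (CI 1.204 to 4.07) and 8.89 CPM, the latter with a CI of 3.26 to 19.4. The highest level was in endothelial-like cells, 23.3 CPM on day 1 (14 UMIs, CI 12.7 to 39.1) and 124 CPM on day 3 (64 UMIs, CI 95.3 to 158), in 74 and 72 cells. With fewer than 100 UMIs over both days no ratio is drawn there.

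Bcl2l1 was near its day 1 level in monocyte/macrophage-like cells on day 3, at 52.7 CPM (CI 50.5 to 55.0) and 57.9 CPM (CI 55.6 to 60.1), a log2 ratio of 0.13 (CI 0.05 to 0.22) and below the median of all genes. It was -0.035 with each library clustered on its own and -0.010 in cells selected by Adgre1 and Fcgr1. It was lower on day 3 in fibroblast/FAP-like cells, at 36.3 and 17.9 CPM (-1.02, CI -1.19 to -0.84), and in neutrophil-like cells, at 197 and 80.0 CPM (-1.29, CI -1.73 to -0.91). Among the clusters of the monocyte/macrophage-like class it was lowest in the Plac8-led cluster, at 13.4 CPM on day 1 and 20.1 CPM on day 3, and highest in the Cd163-led cluster of day 1 at 74.2 CPM, leaving out the Fcrls-led cells of day 1.

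The death-promoting members were lower on day 3 in monocyte/macrophage-like cells as well. Bcl2l11 had 166 CPM on day 1 (CI 162 to 170) and 84.7 CPM on day 3 (CI 82.0 to 87.4), a log2 ratio of -0.97 (CI -1.03 to -0.91). Its lowest level was in the Gpnmb-led cluster at 56.4 CPM and its highest in the Ccl24-led cluster at 210.1 CPM. Bax had 432 CPM on day 1 (CI 426 to 438) and 269 CPM on day 3 (CI 264 to 274), a log2 ratio of -0.68 (CI -0.72 to -0.65). In the Plac8-led cluster Bax was at 226 and 235 CPM on the 2 days, a log2 ratio of 0.06 (CI -0.11 to 0.22), and Bcl2l11 at 161 and 193 CPM (0.26, CI 0.07 to 0.45).

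Neutrophil-like cells differed from monocyte/macrophage-like cells in the same 2 genes in opposite directions. On day 1 Bcl2l11 was at 486 CPM (CI 467 to 505), 1.55 higher on the log2 scale (CI 1.48 to 1.62), and Bax at 80.8 CPM (CI 73.2 to 88.9), a log2 difference of -2.42 (CI -2.56 to -2.28). With the other call of cells these differences were 0.21 and -0.71. Bax in neutrophil-like cells was higher on day 3, at 194 CPM (131 UMIs, CI 162 to 230), a log2 ratio of 1.27 (CI 0.97 to 1.55). The 254 cells of that day held more markers of monocytes/macrophages and of fibroblasts/FAPs than those of day 1, as given above, and free RNA would give up to 41.3 CPM of Bax. The part of these other cells in the level of Bax was not tested. Among members with at least 100 UMIs in neutrophil-like cells, 2 of 7, Bcl2a1d and Bcl2l1, were at least 2-fold lower on day 3 against 8.94% of all genes, and 1 of 7, Bax, at least 2-fold higher against 26.3%.

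**Figure D4:**
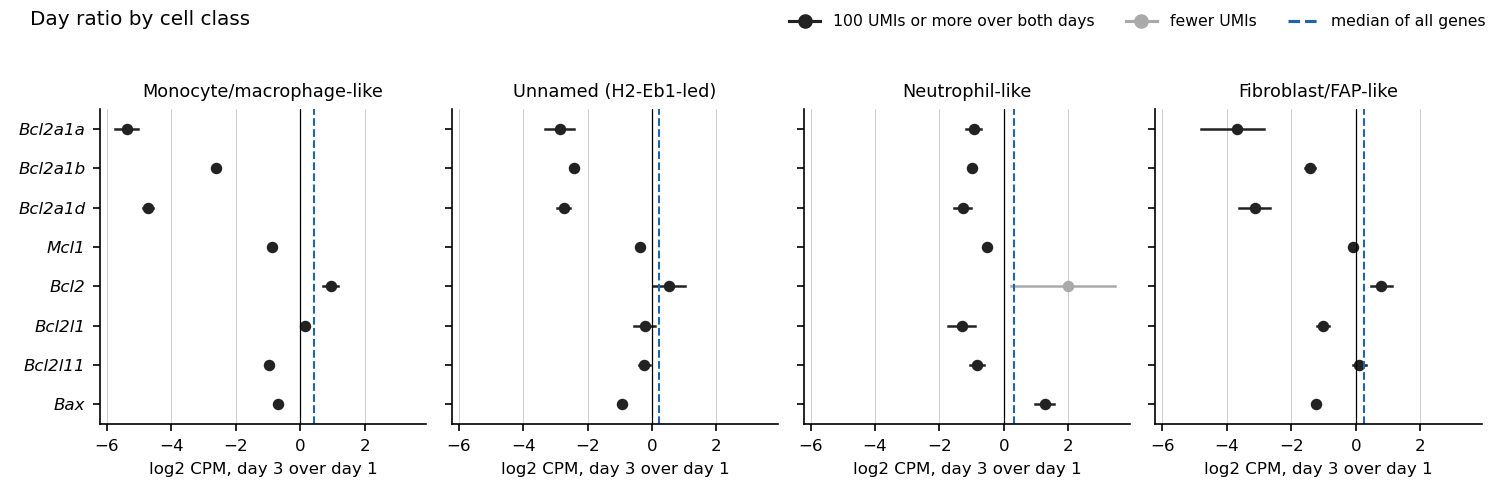
log2 ratio of CPM, day 3 over day 1, of the members in 4 cell classes with exact binomial 95% intervals; grey marks a gene with fewer than 100 UMIs over both days and the dashed line the median of all genes with at least 100. In monocyte/macrophage-like cells the paralogs stand at -5.37, -2.61 and -4.73 and the other members between -0.97 and 0.95; in neutrophil-like cells Bax stands at 1.27.

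The H2-Eb1-led cluster and fibroblast/FAP-like cells gave the following counts. In the H2-Eb1-led cluster 3 of 8 members, again the paralogs, were at least 2-fold lower on day 3 against 3.56% of all genes, with log2 ratios of -2.84 for Bcl2a1a, -2.43 for Bcl2a1b and -2.73 for Bcl2a1d, and 0 of 8 were higher against 11.9%. The 3 ratios were closer to each other there than in monocyte/macrophage-like cells. That of Bcl2a1a differed from that of Bcl2a1b by -0.42 (CI -0.90 to 0.02), and that of Bcl2a1d by -0.31 (CI -0.55 to -0.07). On day 3 this cluster held more Bcl2a1a (9.95 CPM) and Bcl2a1d (45.0 CPM) than monocyte/macrophage-like cells, by 2.78 (CI 2.21 to 3.33) and 2.55 (CI 2.30 to 2.79) on the log2 scale, whereas Bcl2a1b differed by 0.10 (CI -0.02 to 0.22). In fibroblast/FAP-like cells 5 of 8 were lower, the paralogs with Bcl2l1 and Bax, against 7.16%, and 0 were higher against 21.2%. Without likely doublets Bcl2a1b, at -0.60, was no longer 2-fold lower, and Bcl2l11, at 1.001, was 2-fold higher. Bax, of which free RNA would give up to 20.6 CPM on day 1, went from 334 to 142 CPM (-1.23, CI -1.29 to -1.17), and Bcl2l11, of which free RNA would give up to 9.21 CPM on day 1, had 21.1 and 22.9 CPM (0.12, CI -0.07 to 0.30). The ratio of Bcl2l11 ran from -0.24 to 1.30 over the alternatives. The paralogs of fibroblast/FAP-like cells fell along with the free RNA, as given above, and after its subtraction the log2 ratio of Bcl2a1b was 0.22 in place of -1.42.

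The pro-survival transcripts of a class, summed over the paralogs, Mcl1, Bcl2l1 and Bcl2, therefore shifted towards Mcl1. They summed to 2652 CPM on day 1 in monocyte/macrophage-like cells, of which the paralogs gave 38.7% and Mcl1 59.1%, and to 1056 CPM on day 3, of which the paralogs gave 12.7% and Mcl1 80.8%. Bcl2l1 gave 1.99% and 5.48%, and Bcl2 0.214% and 1.03%. In neutrophil-like cells the sum was 8353 and 4956 CPM, and the paralogs gave 46.9% and 39.0%. In the H2-Eb1-led cluster the paralogs gave 45.3% and 15.6%, and in endothelial-like cells of day 3 Bcl2 gave 18.1% (CI 14.2 to 22.5). For each UMI of Bax there were 6.14 pro-survival UMIs in monocyte/macrophage-like cells of day 1 and 3.92 on day 3, 103 and 25.5 in neutrophil-like cells, whose markers of other classes differed between the days as given above, and 1.33 and 2.50 in fibroblast/FAP-like cells. These are ratios of transcripts, and Mcl1 and Bim are also known to be set by the turnover of the protein.

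**Figure D5:**
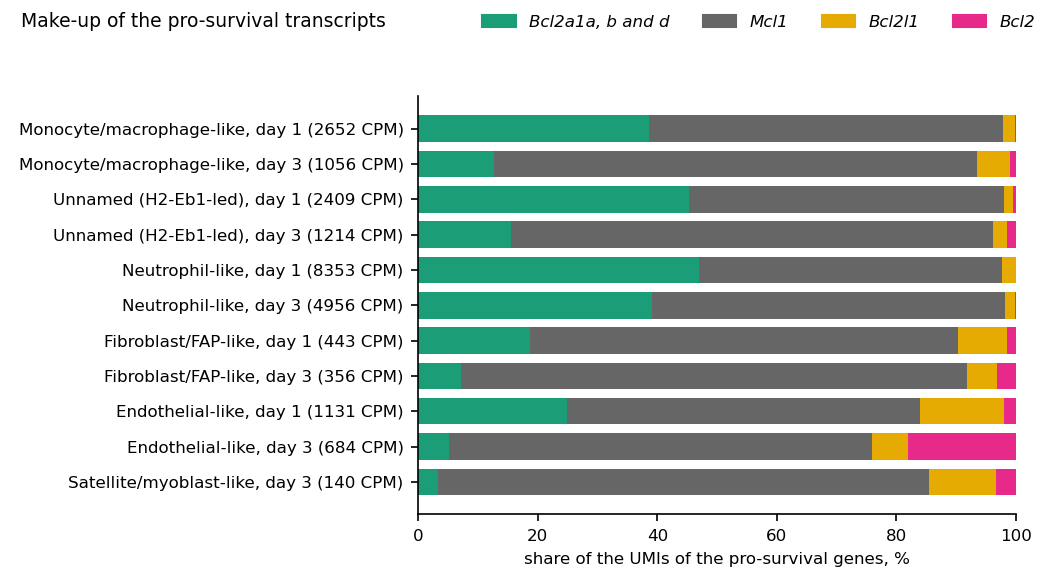
Share in percent of the UMIs of the pro-survival genes given by the 3 Bcl2a1 paralogs (green), Mcl1 (grey), Bcl2l1 (yellow) and Bcl2 (pink), by cell class and day, with the summed CPM in brackets. In monocyte/macrophage-like cells the share of the paralogs goes from 38.7% to 12.7% and the sum from 2652 to 1056 CPM, and Mcl1 gives at least 50% of the UMIs in each row.

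Over the 9 pairs of a named class and a day with at least 50 cells, the log2 of the summed paralog CPM (10 CPM added) had a Pearson correlation of 0.97 with Mcl1, 0.94 with Bcl2l11, 0.82 with Bcl2l1, -0.20 with Bax and -0.35 with Bcl2. The pairs share libraries and differ in depth, so no p is given. Among them are endothelial-like and fibroblast/FAP-like cells of day 1, whose paralog levels are not read as expression. The part of free RNA in these correlations and in those that follow was not tested. The 10 genes most like the paralog sum among those with at least 500 UMIs were Slpi, Clec4e, Ccr1, Clec4d, Slc16a3, Nlrp3, Rab20, Ptafr, Cxcl2 and Il1rn, with correlations from 0.983 to 0.995. Slpi encodes a protease inhibitor of neutrophils, Clec4e and Clec4d encode receptors for ligands such as those of damaged cells and mycobacteria, and Nlrp3 encodes an inflammasome sensor. Clec4e, the second, had 1470 CPM in monocyte/macrophage-like cells of day 1, 204 CPM in those of day 3 and 5030 CPM in neutrophil-like cells of day 1.

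Of 54 other genes of apoptosis and its regulation, listed by their role, 47 had at least 100 UMIs in monocyte/macrophage-like cells. At least 2-fold lower on day 3 were 4 of them, 8.51% against 4.91% of all genes, and at least 2-fold higher 10, 21.3% against 26.9%. Among further pro-survival members Bcl2l2 (Bcl-w) had a log2 ratio of -0.68 (6.82 and 4.26 CPM) and Bcl2l12 of 1.16 (9.16 and 20.4 CPM). Bcl2a1c had 47 UMIs on day 1 and 1 on day 3. Of the effectors Bak1 had 74.8 and 77.8 CPM (0.06, CI -0.01 to 0.13). Among the BH3-only genes 5 of 7 were counted, and Bid, which caspase 8 cleaves to link death receptors with mitochondria, was highest at 1.47 (8.05 and 22.3 CPM), Bmf was at 1.01 (0.771 and 1.57 CPM) and Pmaip1 (Noxa), which binds Mcl1 and A1, was lowest at -0.40 (26.3 and 19.9 CPM). The 4 BNIP genes ran from -0.73 for Bnip3 to 0.95 for Bnip3l.

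In the list of the apoptosome and caspases the lowest ratio was that of Cycs (cytochrome c) at -0.47 (271 and 196 CPM), and Endog, a nuclease of the mitochondria, was at 1.16 (5.40 and 12.1 CPM). Among the inhibitors of apoptosis the NF-kB target Birc3 had -1.26 (79.7 and 33.2 CPM) and Birc5 (survivin), a gene of dividing cells, went from 7 UMIs to 3535 (0.169 and 79.2 CPM). In the death receptor pathway 2 genes were at least 2-fold lower, Fas at -1.70 (34.3 and 10.6 CPM) and Cflar at -1.40 (315 and 119 CPM), which encodes the caspase 8 inhibitor c-FLIP, and 2 were higher, Fadd at 1.46 and Mlkl at 1.06. The median of the 9 genes counted was -0.51 against 0.44 over all genes. Of Trp53 and its targets Cdkn1a was lowest at -1.36 (637 and 248 CPM), Phlda3 highest at 1.70 (3.37 and 11.01 CPM) and Trp53 at -0.15. The last list held 4 genes chosen for the turnover of Mcl1 protein. Fbxw7, part of a ubiquitin ligase, was highest at 1.01 (16.1 and 32.5 CPM). Trib1, for which no such role is claimed here, was lowest at -0.07.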

How the data were processed

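Single cells of injured quadriceps were described from 2 libraries, 1 for each day. The values deposited are raw UMI counts for every gene and possible barcode, not normalized and with no cells marked. Cell Ranger 5.0.0 and mm10 stand in the submitters' processing notes, while the file headers give Cell Ranger 4. All per-sample columns were used. Earlier results of these data were known when the members and the gene lists were chosen.

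Cells were the barcodes with the highest UMI totals, as many as given for each library. Their lowest totals were 527 UMIs on day 1 and 1302 on day 3, of 74852240 and 102565783 UMIs in all. Barcodes under 1000 UMIs, under 200 genes or above 7.5% mitochondrial UMIs were dropped. Seurat 5.3.0 with sctransform 0.4.2 (R 4.3.3) gave the clusters from 10 principal components at resolution 0.8, after regression on mitochondrial share and on the S score minus the G2M score. Markers, members and the genes of the pathway lists were taken out of the 3000 variable features before the principal components were computed. The list with the highest relative level named a cluster, provided that 3 or more of its markers were raised and that it was not outnumbered by another list among the 10 leading genes. Scrublet in scanpy 1.11.5 called 1 and 0 doublets by its own threshold, too few to be of use. Doublets therefore stayed in, except in an alternative without the 363 and 171 highest scores.

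UMIs were summed over the cells of a class before CPM were taken. Poisson intervals belong to CPM and Clopper-Pearson intervals to shares, both exact. A log2 ratio was taken with 0.5 added to either count. With 1 library in each group nothing was tested. A gene needed 100 UMIs over both days, and a class 50 cells on each day, for a day ratio, and a change of 2-fold was counted. The software was Python 3.11.15, numpy 2.4.6, scipy 1.17.1, pandas 2.3.3 and matplotlib 3.10.9, and the day ratio was checked on simulated data. Beside the members, the text names the top and bottom gene of each pathway list, any gene past 2-fold and the 10 genes most like the paralog sum. A gene that this rule would name is not reported here. GENCODE M21 and RefSeq (GRCm38.p6) supplied the sequences, and protein sequences were not used here. Alternatives varied how cells were called, filtered, clustered, named and selected, whether doublets were removed, how CPM were averaged, and whether free RNA or depth was adjusted.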

Additional observations from a re-analysis of the deposited data

Results flagged for a closer look

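The day ratio of Bax pointed in opposite directions in cell classes of the same 2 libraries, past 2-fold in each. In neutrophil-like cells its CPM was higher on day 3 with a log2 ratio of 1.27, in fibroblast/FAP-like cells it was lower with a log2 ratio of -1.23, and in endothelial-like cells it was lower with a log2 ratio of -1.18, from 462 CPM (278 UMIs) to 203 CPM (105 UMIs). Free RNA would give up to 179.5 and 34.8 CPM of these endothelial-like levels, 20.6 and 4.28 CPM of the fibroblast/FAP-like and 6.68 and 41.3 CPM of the neutrophil-like, and the ratios were taken without its subtraction. With 1 library per day the difference between the classes was not tested.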

How the results depend on the processing

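No paired analysis was possible because each day had 1 library. In monocyte/macrophage-like cells the log2 day ratio of the summed paralogs was between -3.41 and -2.78, that of Mcl1 between -0.95 and -0.74 and that of Bax between -0.80 and -0.61 over 13 alternatives, and resolution 0.4 and subtraction of free RNA left these 3 values within their counting intervals. Given in the order summed paralogs, Mcl1 and Bax, the ratios were -3.01, -0.95 and -0.73 with the other call of cells, and -3.41, -0.75 and -0.64 with cells of fewer than 200 genes per 1000 UMIs left out. They were -3.04, -0.90 and -0.77 with each library clustered on its own, -2.78, -0.86 and -0.79 with each cell named by its highest marker score, and -3.08, -0.78 and -0.61 with the mean of single cells. They were -3.03, -0.74 and -0.62 at 1000 UMIs per cell, and -3.11, -0.78 and -0.64 at 3000. The summed paralogs stood at -2.99 with a mitochondrial limit of 15%, and at -2.83, with Bax at -0.80, in cells selected by Adgre1 and Fcgr1. Mcl1 stood at -0.85 without likely doublets. Bax stood at -0.74 without cells holding 3 or more neutrophil markers, an alternative chosen after seeing the data.

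The share of Bcl2a1a among the paralogs on day 1 was 5.68% with each library clustered on its own, 5.63% by highest marker score and 5.34% in cells selected by Adgre1 and Fcgr1. On day 3 it was 0.535% in the cells so selected, 0.836% without cells holding neutrophil markers, 1.43% and 2.11% at 3000 and 1000 UMIs per cell, 1.91% as the mean of single cells and 2.20% with cells of few genes per UMI left out.

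The log2 excess of the summed paralogs in neutrophil-like over monocyte/macrophage-like cells of day 1 turned to -0.51 with the other call of cells, where Bcl2a1b stood at -0.57, Bcl2a1d at -0.74, Bcl2l1 at -0.35 and Bcl2 at 0.074. That call left 558 neutrophil-like cells on day 1, of which 439 belonged to a cluster led by Ifitm6, Plac8 and Hp. The excess of the sum was 1.27 with each library clustered on its own, 1.58 by highest marker score, 1.96 without cells holding neutrophil markers, 1.97 without likely doublets, 1.99 at 1000 UMIs per cell, 2.01 with cells of few genes per UMI left out and 2.02 against cells selected by Adgre1 and Fcgr1. Bcl2 in that comparison stood at 0.34 at 3000 UMIs per cell. Bcl2l1 in monocyte/macrophage-like cells stood at -0.035 with each library clustered on its own and at -0.010 in cells selected by Adgre1 and Fcgr1.

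In fibroblast/FAP-like cells Mcl1 turned to 0.18 without likely doublets, 0.33 after subtraction of free RNA, 0.056 at 1000 and 0.14 at 3000 UMIs per cell, and Bcl2a1b to 0.22 after subtraction of free RNA. The cause of these turns was not tested. Depth limits Bcl2 in neutrophil-like cells, with 12 UMIs on day 1 and 6 on day 3, and Bcl2a1a in monocyte/macrophage-like cells of day 3, with 65.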
